A study of Mus musculus with 48 samples.

Results

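The Hox genes are the protein-coding genes whose mouse symbol is Hox, a cluster letter from a to d and a paralogue number. Of 39 such genes in GENCODE M21, 38 were among the 38293 gene rows of the count table, and Hoxd4 was not analysed here. Hox genes encode homeodomain transcription factors that lie in 4 clusters, each on its own chromosome. Within a cluster all genes are transcribed in one direction, and during development genes toward the 3′ end, with low paralogue numbers, are switched on earlier and further forward in the embryo than genes toward the 5′ end. In the nervous system their territory is the hindbrain and spinal cord, where combinations of Hox proteins assign the identity of cranial and spinal motor pools, and the forebrain lies outside it. Retinoic acid from neighbouring mesoderm and the Pbx and Meis cofactors, which bind DNA beside Hox proteins, are central to this patterning.

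The samples bear on this because they come from one region of each kind. The dorsovagal complex (DVC) is a hindbrain centre that receives the vagus nerve and holds vagal motor neurons, and the mediobasal hypothalamus (MBH) is a forebrain centre of appetite control. From each region, 12 samples gave a pair of libraries. One library of a pair was made from RNA recovered by immunoprecipitation (IP) of ribosomes with an antibody against ribosomal protein S6 in its phosphorylated state, a modification that follows cell activity. The other was made from total RNA of the same lysate (input). Each combination of region and RNA kind held 3 libraries from mice given AC3174 at 1 µg/kg, 3 given AC170222, 3 given a combination and 3 given saline, so there were 48 libraries in 16 groups. AC3174 is an agonist of the receptor for glucagon-like peptide 1, and AC170222 is an agonist for cholecystokinin receptors. The labels give AC170222 a dose of 2.5 µg/kg, but the treatment field spells the drug AC710222, and under that spelling the doses are 2.5 or 10 µg/kg, so the dose cannot be settled here. The doses in the combination are not given in the labels. All mice were C57/Bl6 males, 9 weeks old, on standard chow, fasted for 6 h and injected intraperitoneally with 10 µL per g of body weight. The number of mice behind a sample and the time from injection to dissection are not stated, so p-values measure the spread between these samples, which may be technical.

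Depth ran from 102116189 to 191252522 counts in DVC IP, from 29492622 to 95079227 in DVC input, from 21782798 to 73940674 in MBH IP and from 36542586 to 80084056 in MBH input. Fewer genes had a count in some IP libraries than in any input: 9925 to 16796 in DVC IP, against 16569 to 18200 in DVC input, and 6285 to 15913 in MBH IP, against 12853 to 18657 in MBH input. Of the 6 libraries with under 12000 genes, 5 were MBH IP and 1 was the third AC3174 library of DVC IP. Region markers mostly went with the labels: in input, 9 of 13 DVC markers were higher in the DVC and 2 were lower, and of 17 MBH markers 12 were lower and 1 was higher. Slc5a7, the choline transporter of cholinergic neurons such as vagal motor neurons, averaged 41.4 CPM (counts scaled to library size) in DVC IP and 66.3 CPM in DVC input and had no count in 24 MBH libraries. Six6, a forebrain transcription factor, averaged 21.3 CPM in MBH IP and 28.9 CPM in MBH input and had 2 counts in all in the DVC.

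The promoters of the leading gene of each cluster that has an entry are shown first, with that of Hoxa13, a gene with no count in any library, because the 4 genes with counts share a motif that the Hoxa13 window lacks. The sequences are RefSeq windows of 300 bases on GRCm38.p6, from 250 bases before a transcription start to 50 after it, and 22 of the 39 symbols had an entry. Capitals mark AGGTCA or its complement TGACCT, the core site bound by retinoic acid receptors and other nuclear receptors.
Hoxa5, chr6:52204538-52204837, minus strand: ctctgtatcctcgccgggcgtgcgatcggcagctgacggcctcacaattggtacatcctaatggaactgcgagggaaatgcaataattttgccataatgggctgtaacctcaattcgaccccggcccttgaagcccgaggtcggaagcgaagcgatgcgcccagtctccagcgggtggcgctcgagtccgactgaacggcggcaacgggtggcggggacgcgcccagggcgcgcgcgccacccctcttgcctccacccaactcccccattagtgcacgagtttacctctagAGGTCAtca
Hoxb4, chr11:96318017-96318316, plus strand: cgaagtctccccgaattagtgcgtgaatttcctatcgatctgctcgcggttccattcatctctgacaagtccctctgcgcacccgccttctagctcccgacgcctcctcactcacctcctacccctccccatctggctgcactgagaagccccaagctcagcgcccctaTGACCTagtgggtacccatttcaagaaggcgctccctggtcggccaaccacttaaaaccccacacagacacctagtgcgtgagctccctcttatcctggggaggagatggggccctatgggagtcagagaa
Hoxc4, chr15:103034145-103034444, plus strand: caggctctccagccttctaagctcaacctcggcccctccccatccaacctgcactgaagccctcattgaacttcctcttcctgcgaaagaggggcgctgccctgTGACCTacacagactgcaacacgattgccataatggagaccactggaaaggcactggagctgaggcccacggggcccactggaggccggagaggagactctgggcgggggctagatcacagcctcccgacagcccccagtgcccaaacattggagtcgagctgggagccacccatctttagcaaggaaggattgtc
Hoxd3, chr2:74711743-74712042, plus strand: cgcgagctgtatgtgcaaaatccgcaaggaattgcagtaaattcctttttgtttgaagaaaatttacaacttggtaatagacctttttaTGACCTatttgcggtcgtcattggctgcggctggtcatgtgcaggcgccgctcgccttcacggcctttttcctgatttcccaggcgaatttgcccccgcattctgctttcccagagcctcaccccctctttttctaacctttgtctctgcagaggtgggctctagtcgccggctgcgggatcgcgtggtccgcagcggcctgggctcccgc
Hoxa13, chr6:52260831-52261130, minus strand: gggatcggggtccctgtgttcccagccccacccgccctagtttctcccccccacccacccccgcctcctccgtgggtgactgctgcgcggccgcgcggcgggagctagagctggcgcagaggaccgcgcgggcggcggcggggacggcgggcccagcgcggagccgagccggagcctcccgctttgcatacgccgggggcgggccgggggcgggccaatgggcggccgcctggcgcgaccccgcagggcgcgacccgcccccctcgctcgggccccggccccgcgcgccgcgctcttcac
Searched on both strands, AGGTCA was present in 16.3% of 32851 RefSeq windows of this length and in 7 of 24 Hox windows. It was in 4 of the 7 windows of Hox genes with a count in every DVC input, which are the 4 printed above with it, and in 1 of the 10 windows of Hox genes with no count in any DVC input. TGATNNAT, a site for Hox and Pbx proteins together, was in 8.85% of all windows and 4 of 24 Hox windows, 1 of them Hoxa2 in the first set and 1 Hoxb1 in the second. The median GC content was 60.3% in the first set and 58.3% in the second, against 52.7% over all windows, and the Hoxa13 window reached 81% with 45 CpG dinucleotides. These matches describe letters in the windows and carry no test.

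The clusters also hold microRNAs. The miR-10 and miR-196 families are shown because their genes lie beside or within the spans of Hox genes described here, and capitals mark the seed, bases 2 to 8.
mmu-miR-10a-5p: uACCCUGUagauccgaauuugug
mmu-miR-10b-5p: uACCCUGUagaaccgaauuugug
mmu-miR-196a-5p: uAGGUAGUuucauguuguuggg
mmu-miR-196b-5p: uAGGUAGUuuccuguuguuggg
Counted from 1 at the 5′ end, miR-10b and miR-10a differ by A12U, miR-10b first, and share their seed. The miR-10a gene lies between Hoxb5 and Hoxb4, with its mature miR-10a-5p at chr11:96317186-96317208. The miR-10b gene lies within the spans of Hoxd3 and Hoxd4, with its mature miR-10b-5p at chr2:74726074-74726096. The miR-196 genes lie between Hoxb13 and Hoxb9, between Hoxc10 and Hoxc9, where the annotated span of Hoxc5 also reaches, and within the span of Hoxa9. These libraries do not measure mature microRNAs, so no level is given for them.

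In the DVC, 25 of 38 Hox genes had at least 1 count in some library and 13 had none in any of the 48 libraries. The 13 without a count were Hoxa9, Hoxa10, Hoxa11, Hoxa13, Hoxb1, Hoxc10, Hoxc11, Hoxc12, Hoxc13, Hoxd9, Hoxd10, Hoxd12 and Hoxd13. Of these, 12 have paralogue numbers from 9 to 13, and the exception is Hoxb1, which in the embryo marks the part of the hindbrain that forms facial motor neurons. A count of 0 allowed a level of up to 0.00198 CPM over the 12 DVC IP libraries and 0.00378 CPM over the 12 DVC input libraries, at 3 counts over each set, for counting error only. A group of 13 genes had a count in every DVC input: Hoxa2, Hoxa3, Hoxa4, Hoxa5, Hoxa6, Hoxb2, Hoxb3, Hoxb4, Hoxb5, Hoxb6, Hoxc4, Hoxc5 and Hoxd3.

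Levels were compared between genes as CPM per kilobase of exon (CPM/kb). The highest were Hoxb5 and Hoxa5, of which Hoxa5 takes part with Hoxc5 in forming the phrenic motor pool. Hoxb5 (chr11:96303336-96306121, plus strand) averaged 50.9 ± 14.9 CPM/kb in IP and 58.1 ± 13.6 CPM/kb in input (SD, n = 12 each). Hoxa5 (chr6:52201754-52204587, minus strand) averaged 19.6 ± 18.2 CPM/kb in IP and 55.2 ± 18.2 CPM/kb in input. The pair lay within each other's spread in input, where Hoxb5 was above Hoxa5 in 7 of 12 libraries. Hoxc4 (chr15:103018934-103036852, plus strand) followed at 25.1 ± 10.1 CPM/kb in IP and 21.3 ± 3.97 CPM/kb in input, below Hoxa5 in 12 of 12 inputs. Hoxc5 averaged 13.9 ± 5.87 CPM/kb in IP and 9.88 ± 3.87 CPM/kb in input, below Hoxc4 in 12 of 12 inputs.

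A step of 6 genes came next, whose neighbours in the order did not differ beyond their spread in input. It ran over Hoxc5 at 9.88, Hoxd3 at 9.03, Hoxa4 at 8.80, Hoxb6 at 8.47, Hoxa6 at 8.36 and Hoxa2 at 6.08 CPM/kb. Hoxa2, whose domain reaches furthest forward in the embryonic hindbrain, was above Hoxb4 in 12 of 12 inputs. Hoxb4 at 2.02, Hoxb7 at 1.91, Hoxa3 at 1.65 and Hoxb3 at 1.47 CPM/kb formed a lower step. Below these came Hoxb2 at 0.823, Hoxd1 at 0.785, Hoxc6 at 0.474 and Hoxa7 at 0.322 CPM/kb. Hoxb8, known in mice for the excessive grooming of its mutants, averaged 0.058 CPM/kb in input, with a count in 8 of 12 libraries, and Hoxb13 and Hoxd8 averaged 0.031 and 0.025 CPM/kb, from 1 and 2 of 12 libraries. Hoxc9 and Hoxd11 had 13 and 5 counts in all DVC inputs together. Hoxb9 and Hoxc8 had counts in 1 DVC IP library each, 32 counts in the first saline library and 43 in the first AC3174 library.

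**Figure D1:**
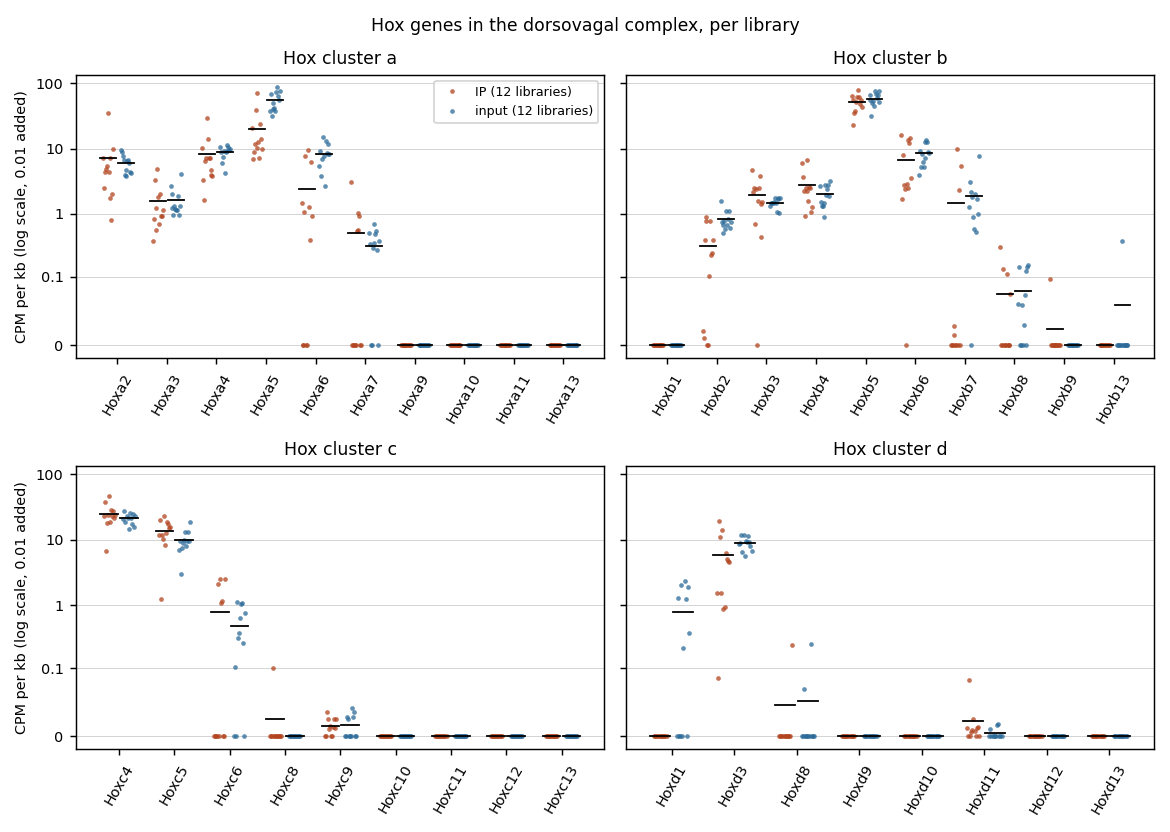
Level of the Hox genes reported here in the DVC, in CPM per kilobase on a log axis with 0.01 added, by cluster and paralogue number. Points are libraries (12 IP and 12 input) and bars are means; the gene numbered 5 has the highest mean in clusters a and b and the gene numbered 4 in cluster c, and genes numbered 9 and above lie at or near 0.

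Exons shared with other genes limit a few of these levels, since the kit does not mark strand. Hoxd3 shares 62.8% of its exon length, with Hoxd4 and with the antisense genes Hoxd3os1 and Haglr among others, and Hoxb3 shares 52.9% with the antisense gene Hoxb3os. Hoxb2 shares 27.3%, Hoxa3 27.1%, Hoxa7 20.4% and Hoxa4 and Hoxa2 less. Hoxa5, Hoxa6, Hoxb4, Hoxb6 and Hoxc4 share none, and Hoxb5 shares 3.59%.

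By paralogue number, the summed level over the clusters peaked at number 5 in both RNA kinds. It was 84.5 CPM/kb in IP and 123 CPM/kb in input at number 5, and 36.1 CPM/kb in IP and 32.1 CPM/kb in input at number 4. Number 3 gave 9.37 CPM/kb in IP and 12.2 CPM/kb in input, and number 6 gave 9.81 CPM/kb in IP and 17.3 CPM/kb in input. Numbers 4 and 5 together held 79.6% ± 9.88 of the Hox level in IP and 79.2% ± 2.75 in input (SD, n = 12 each), although Hoxd4 is not in the sum. Numbers 6 to 8 held 8.31% in IP and 9.90% in input, and numbers 9 to 13 held 0.016% in IP and 0.024% in input.

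By cluster, the shares in IP and input were not alike. Cluster a (chr6:52155590-52260880) held 24.8% ± 10.7 of the Hox level in IP and 41.2% ± 4.93 in input. Cluster b (chr11:96194316-96368256) held 44.2% ± 10.2 in IP and 37.2% ± 3.60 in input, and cluster c (chr15:102921103-103036852) held 26.3% ± 7.71 in IP and 16.4% ± 2.40 in input. Cluster d (chr2:74668310-74765142), nearly all of it Hoxd3, held 4.71% ± 6.58 in IP and 5.21% ± 1.77 in input. These shares are descriptions over 12 libraries each and were not tested.

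**Figure D2:**
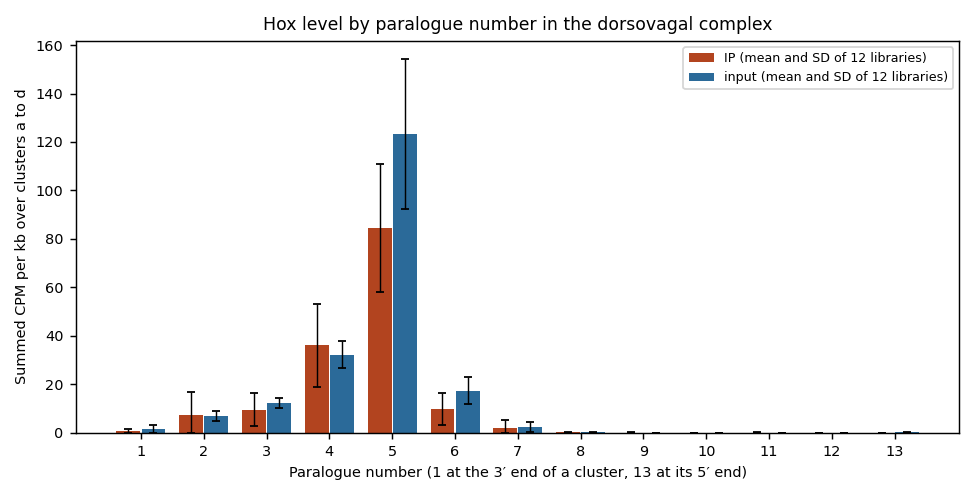
Hox level by paralogue number in the DVC, as CPM per kilobase summed over the 4 clusters, for IP and input. Bars are means and whiskers SD of 12 libraries; the peak is at number 5, with 84.5 CPM/kb in IP and 123 CPM/kb in input.

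The first comparison asked how the hindbrain region differed from the hypothalamic one. In input, the CPM of all Hox genes together averaged 470 ± 91.5 in the DVC and 0.320 ± 0.709 in the MBH (SD, n = 12 each), and the lowest DVC library, at 310 CPM, lay above the highest MBH library, at 2.54 CPM. In IP, the sum averaged 385 ± 108 CPM in the DVC and 1.27 ± 2.22 CPM in the MBH, and the lowest DVC library, at 247 CPM, lay above the highest MBH library, at 7.75 CPM. The sum runs over genes of unequal length and is a total of reads. In bulk tissue, fewer cells of a type and less RNA per cell cannot be told apart.

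In input, 19 of the 38 genes passed the filter on low counts, and each of the 19 was higher in the DVC at an adjusted p under 0.05 by edgeR's quasi-likelihood F test with Benjamini-Hochberg adjustment. Over all genes tested 21.9% were called, and 11.7% were called higher in the DVC. A Hox gene could pass the filter only through its DVC counts, so the 19 were bound to lie on that side and their number is a description. In IP, 18 passed and 13 were called higher, where 5.89% of all genes were called and 3.11% were called higher. Apart from Hoxa2, these genes had counts in at most 2 MBH IP libraries and passed through their DVC counts. They too were bound to lie on that side, and their number is a description. Hoxa7, Hoxb7, Hoxb8 and Hoxc6 were among those not called in IP, and for all but Hoxb8 of these the fit gave no usable error. For 13 Hox genes all 12 DVC inputs lay above all 12 MBH inputs, and 1.57% of all genes did so. In IP this held for 9 Hox genes, and 0.529% of all genes did so.

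Hoxb5 had the smallest p in input. It had 64.1, 148 and 217 CPM as lowest, median and highest DVC IP library and 86.7, 159 and 214 CPM in DVC input. In the MBH it had 86 counts in IP, 85 of them in the third combination library, and no count in input. Its log2 difference between DVC and MBH was 16.36 ± 0.30 (SE; edgeR adjusted p = 2.18e-11) in input and 14.23 ± 1.24 (adjusted p = 1.90e-05) in IP. Such a fitted value averages the log2 differences of the 4 treatments, and where an MBH group is at 0 it depends on the prior count. It is therefore no measure of the fold: set against 3 counts over the 12 MBH inputs Hoxb5 was at least 41589-fold higher in the DVC, and in IP the ratio of the means was 690. Without the third combination library of MBH IP the fitted value in IP was 15.68.

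Hoxa5 had no count in any MBH library. Its log2 difference was 15.71 ± 0.38 (edgeR adjusted p = 1.80e-10) in input and 14.37 ± 1.13 (adjusted p = 2.40e-05) in IP, and it was at least 26586-fold higher in the DVC in input and at least 6345-fold higher in IP. Hoxd3 and Hoxa4 had no MBH count either. Hoxd3 was at least 9718-fold higher in DVC input and at least 4207-fold higher in DVC IP, and Hoxa4 at least 3602-fold in input and at least 2260-fold in IP. Hoxc4 had some MBH signal: 134 counts fell in the second AC3174 IP library and 25 in the first combination input. Its mean level was 1735 times as high in the DVC as in the MBH in input and 405 times in IP, and each ratio rests on that single MBH library.

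The other 6 of the 8 genes with the smallest p in input were higher in the DVC too. The log2 difference was 14.27 ± 0.40 for Hoxd3 (edgeR adjusted p = 7.23e-10), 13.46 ± 0.57 for Hoxc5 (adjusted p = 2.02e-09), 12.41 ± 0.55 for Hoxb6 (adjusted p = 3.33e-09) and 12.83 ± 0.53 for Hoxa4 (adjusted p = 1.86e-08). Hoxc4, at 13.29 ± 0.87, and Hoxa3, at 11.75 ± 0.77, had an adjusted p of 1.43e-07 each. In IP, Hoxc4 differed by 13.20 ± 1.41 (adjusted p = 0.000104), Hoxa4 by 12.92 ± 1.32 (adjusted p = 0.000167) and Hoxb4 by 12.13 ± 1.33 (adjusted p = 0.000293). Hoxa3, at 12.57 ± 1.40, Hoxd3, at 13.87 ± 1.60, and Hoxc5, at 12.36 ± 1.58, had adjusted p-values of 0.000321, 0.000404 and 0.000430 in IP. Single libraries moved some of these fitted values: that of Hoxc4 was 14.81 in input without the first combination library of the MBH and 15.40 in IP without the second AC3174 library of the MBH. That of Hoxc5 in IP was 14.84 without the first AC3174 library of the MBH, and that of Hoxd3 in IP was 13.02 without the third saline library of the DVC. In the 3 saline libraries alone the count of calls was 3 in input (Hoxa5, Hoxb5 and Hoxc4) and 0 in IP, where 3 genes of all tested were called. The share of all genes called in the saline inputs is not given here, so that count is a description.

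**Figure D3:**
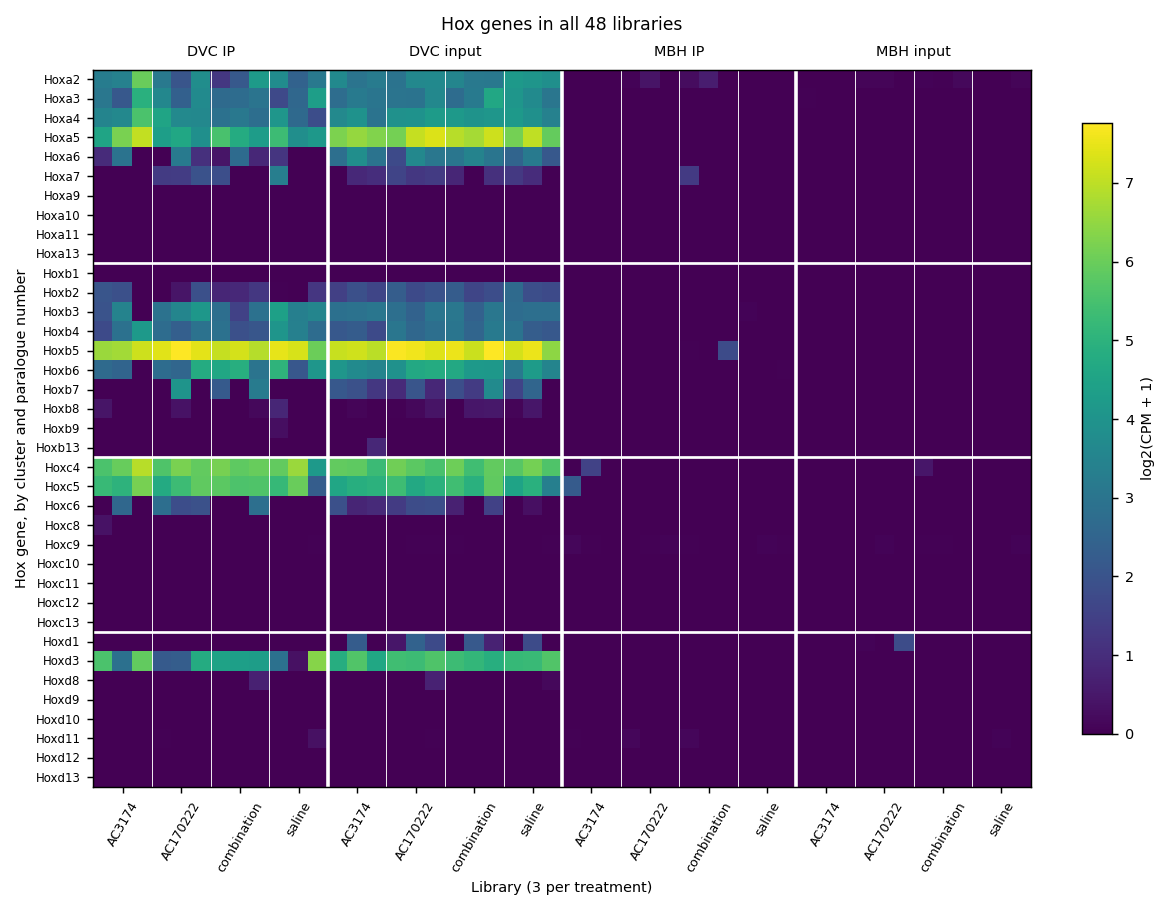
Level of the Hox genes reported here in all 48 libraries, as log2(CPM + 1), ordered by cluster and paralogue number, with DVC left of MBH and IP left of input. Colour marks 13 genes in every DVC input, and most of the MBH side is at 0, with exceptions in single libraries such as Hoxc5 at 3.69 CPM in IP and Hoxd1 at 2.51 CPM in input.

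Cell-type markers also differed between the regions. In input, 6 of 8 neuron markers, 7 of 7 astrocyte markers, 7 of 7 oligodendrocyte markers, 1 of 7 microglia markers and 1 of 7 vascular and meningeal markers were higher in the DVC and none was lower. Over all genes 11.7% were called higher and 10.2% lower. The summed neuron markers ran from 10955 to 12763 CPM in DVC input and from 4740 to 6104 CPM in MBH input, and the summed oligodendrocyte markers from 5974 to 8914 CPM in DVC input and from 1410 to 3215 CPM in MBH input. Of the 25 Hox genes with counts, 12 had any count in the MBH. The part of these markers in the Hox difference was not tested.

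In the MBH, 3 Hox genes had a count in at least 6 of 24 libraries. Hoxc9, a gene of thoracic spinal cord, had 31 counts spread over 17 libraries with at most 4 in one. Hoxd11, a gene of lumbar spinal cord and limb, had 17 counts over 11 libraries with at most 3 in one. Both genes were sparse in the DVC too: Hoxc9 averaged 0.0119 CPM in DVC input and 0.0189 CPM in MBH input, and Hoxd11 averaged 0.0047 CPM in DVC input and 0.0122 CPM in MBH input. Hoxa2 had 81 counts over 10 MBH libraries, 32 of them in the second combination IP library.

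The remaining MBH signal came in single libraries. Hoxd1 had 168 counts in the third AC170222 input, Hoxc5 had 126 counts in the first AC3174 IP library, and Hoxa7 had 48 in the first combination IP library. Hoxa3, Hoxb3 and Hoxb6 had 1, 2 and 3 counts in all. No Hox gene had counts in the MBH without counts in the DVC.

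The second comparison asked whether Hox mRNA was over- or under-represented on ribosomes with phosphorylated S6. In the DVC, 20 Hox genes were tested, none was called higher in IP and 3 were called lower: Hoxa5, Hoxd1 and Hoxb7. Over all genes 20.4% were called, 6.80% higher and 13.6% lower, so a count of 3 in 20 is near the background. The median log2 difference over the 20 was -0.59, and over all genes tested -0.37. For no Hox gene did the 12 IP libraries lie wholly to one side of the 12 inputs, and 0.399% of all genes lay wholly above and 0.375% wholly below.

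Hoxa5 showed the gap most clearly. In IP it had 22.2, 72.6 and 131 CPM after AC3174, 19.3, 23.9 and 13.6 CPM after AC170222, 45.1, 26.5 and 18.6 CPM after the combination and 39.4, 13.2 and 16.8 CPM after saline. In input it had 75.0, 92.8 and 78.0 CPM after AC3174, 69.4, 136 and 162 CPM after AC170222, 121, 104.5 and 144 CPM after the combination and 70.3, 130 and 60.02 CPM after saline. Its IP level was below that of its own input in 11 of 12 samples, and the exception was the third AC3174 sample, whose IP library had the fewest genes with a count in the DVC. The mean was 36.9 ± 34.2 CPM in IP and 104 ± 34.1 CPM in input (SD, n = 12 each), and the log2 difference was -1.78 ± 0.28 (SE; edgeR adjusted p = 0.000319). Input was 2.81 times as high as IP. The ratio of mean IP to mean input was 0.919 after AC3174, 0.155 after AC170222, 0.244 after the combination and 0.267 after saline.

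Hoxd1, a gene of the 3′ end of cluster d, had no count in any of 12 IP libraries. In input it had 0, 3.79 and 0 CPM after AC3174, 0.392, 4.39 and 2.35 CPM after AC170222, 0, 3.52 and 0.676 CPM after the combination and 0, 2.43 and 0 CPM after saline. It was thus present in 7 of 12 inputs, and the pairs where both members were at 0 were the other 5. Its log2 difference was -10.09 ± 2.15 (edgeR adjusted p = 0.00817), a value that depends on the prior count. With no IP count, Hoxd1 passed the filter through its input counts and could only lie lower in IP. Its call is therefore a description.

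Hoxb7 had 0.0067, 0.0144 and 0 CPM in IP after AC3174, 0, 15.1 and 0 CPM after AC170222, 3.58, 0 and 8.29 CPM after the combination and 0 in all 3 saline libraries. In input it had 3.39, 2.79 and 1.37 CPM after AC3174, 0.888, 3.12 and 0.815 CPM after AC170222, 2.65, 1.54 and 12.1 CPM after the combination and 1.95, 4.77 and 0 CPM after saline. IP was lower in 9 samples and higher in 2. The log2 difference was -4.51 ± 1.40 (edgeR adjusted p = 0.0303), and this call was lost in 9 of the 12 fits that left out 1 sample each. With the saline IP libraries at 0, the fitted value depends on the prior count and is no measure of the fold. The mean of Hoxb7 was 2.25 CPM in IP and 2.95 CPM in input, so input was 1.31 times as high.

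The input and IP libraries of a sample came from one lysate, and with the sample as a block 1 of the 3 calls held, that of Hoxa5. Leaving out the low-complexity libraries gave 2 calls, Hoxa5 and Hoxd1. Without the second AC3174 sample or without the second saline sample only Hoxa5 was called. Without the first saline sample Hoxa6 was called too, and without the third saline sample Hoxd3 was.

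The other leading genes had IP and input means closer together. Hoxb5 had 96.4, 103 and 143 CPM in IP after AC3174, 169, 217 and 172 CPM after AC170222, 136, 152 and 119 CPM after the combination and 176, 155 and 64.1 CPM after saline. Its inputs had 137, 146 and 124 CPM after AC3174, 212, 192 and 165 CPM after AC170222, 185, 142 and 214 CPM after the combination and 154, 186 and 86.7 CPM after saline. The means were 142 ± 41.4 CPM in IP and 162 ± 37.8 CPM in input, and the groups overlapped, with IP below input in 7 of 12 samples. Its log2 difference of -0.29 ± 0.16 was not called by edgeR (adjusted p = 0.214), while DESeq2 called it lower, with 7 Hox genes lower in all. DESeq2 also called more of all genes than edgeR in this comparison. The share it called lower is not given here, so the 7 are a description.

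Hoxc4 had 46.2, 61.7 and 122 CPM in IP after AC3174, 48.7, 73.5 and 59.0 CPM after AC170222, 71.5, 56.4 and 61.1 CPM after the combination and 59.3, 96.0 and 17.5 CPM after saline. In input it had 58.7, 56.1 and 37.9 CPM after AC3174, 67.3, 54.6 and 45.4 CPM after AC170222, 64.8, 40.8 and 59.4 CPM after the combination and 53.0, 70.3 and 48.5 CPM after saline. IP was above input in 9 of 12 samples for Hoxc4 and for Hoxc5, and neither was called. In cluster c the log2 difference was 0.13 for Hoxc4, 0.43 for Hoxc5 and -1.0 for Hoxc6, and none of the 3 was called.

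Hoxd3 varied widely between IP libraries. It had 46.7, 6.34 and 58.5 CPM in IP after AC3174, 3.63, 3.89 and 26.3 CPM after AC170222, 21.4, 20.03 and 19.1 CPM after the combination and 6.38, 0.287 and 80.9 CPM after saline. Its inputs stayed between 23.7 and 49.8 CPM. The log2 difference of -0.83 ± 0.57 was not called, with IP below input in 9 of 12 samples.

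**Figure D4:**
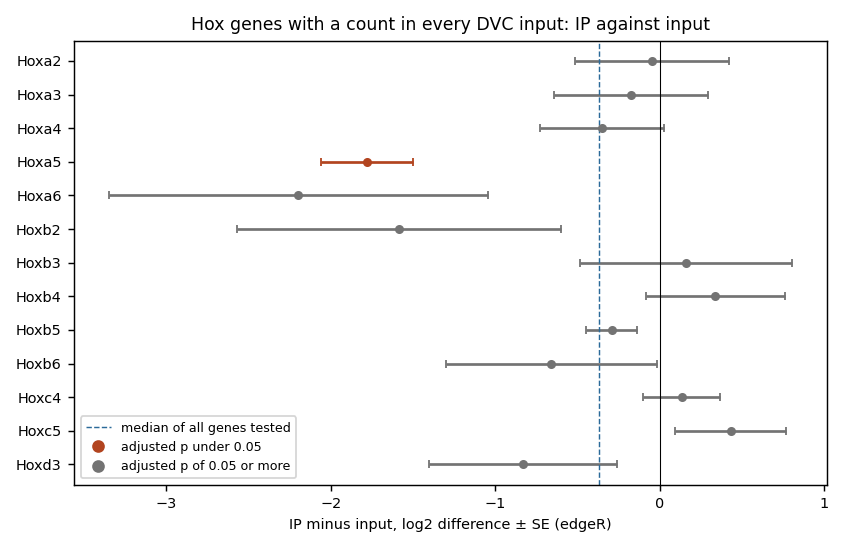
Log2 difference between IP and input in the DVC for the 13 Hox genes with a count in every DVC input, with its SE, and the median of all genes tested as a dashed line. Hoxa5, at -1.78, is the one gene of the 13 past an adjusted p of 0.05, and Hoxb3, Hoxb4, Hoxc4 and Hoxc5 lie above 0.

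Among the 13 genes present in every DVC input, 9 had a count in every IP library as well. Hoxa6 was at 0 in 4 IP libraries, Hoxb2 in 2, and Hoxb3 and Hoxb6 in 1 each. The third AC3174 IP library lacked all 4 of these and also held the highest IP values of Hoxa2 (62.1 CPM), Hoxa3 (29.8 CPM), Hoxa4 (46.6 CPM), Hoxa5 (131 CPM) and Hoxc4 (122 CPM). Hoxa6 was below its input in 12 of 12 samples, at a mean of 2.08 ± 2.96 CPM in IP and 7.31 ± 3.12 CPM in input, and its log2 difference of -2.20 ± 1.15 did not pass (edgeR adjusted p = 0.206).

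Markers of other cells moved between IP and input in the DVC. Of the lists, 5 of 7 microglia markers were lower in IP, with a summed level of 0 to 35.5 CPM in IP and 38.4 to 71.7 CPM in input. Likewise, 6 of 7 vascular and meningeal markers (5.63 to 61.5 CPM in IP and 19.0 to 43.6 CPM in input) and 4 of 7 oligodendrocyte markers (1593 to 7114 CPM in IP and 5974 to 8914 CPM in input) were lower. The neuron list had 4 of 8 higher and 1 lower (13856 to 35186 CPM in IP and 10955 to 12763 CPM in input), and the astrocyte list had 2 of 7 higher. Of all these markers only Cdh5 had no count in DVC IP. Over all genes 6.80% were called higher in IP and 13.6% lower. The part of these cell types in the level of Hoxa5 was not tested.

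In the MBH, 1 Hox gene passed the filter, Hoxa2, and it was not called between IP and input (log2 difference -0.21). Over all genes 0.452% were called in this comparison by edgeR, 0.292% of all lower in IP, and 1976 had an unadjusted p under 0.05.

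The third set of comparisons set each drug against saline. No Hox gene was called in any of the 12 comparisons by edgeR, and 0% of all genes were called in each. The 3 drug comparisons of a region and RNA kind share their saline libraries. In DVC input, 19 Hox genes were tested, of which 0, 0 and 1 had an unadjusted p under 0.05 after AC3174, AC170222 and the combination, beside 841, 731 and 940 of all genes. In DVC IP, 18 were tested, of which 1, 2 and 1 had an unadjusted p under 0.05, beside 1041, 830 and 861 of all genes. In the MBH no Hox gene passed the filter, and 1427, 1092 and 1424 of all genes in input and 293, 231 and 127 in IP had an unadjusted p under 0.05.

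The Hox gene with the smallest p in DVC input after the combination was Hoxc5. It had 40.9, 29.7 and 57.8 CPM after the combination and 21.9, 29.6 and 9.25 CPM after saline. The groups met at 29.7 and 29.6 CPM without crossing, and the log2 difference was 1.11 ± 0.41 (edgeR adjusted p = 0.891). After AC170222 it was Hoxb6, with 14.1, 25.0 and 26.5 CPM against 7.86, 18.1 and 10.4 CPM after saline, groups that overlap. Its log2 difference was 0.88 ± 0.40 (edgeR adjusted p = 1). Hoxa2, named after its values were seen, had 11.8, 6.93 and 8.48 CPM in input after AC3174, 6.72, 11.4 and 11.9 CPM after AC170222 and 10.5, 7.76 and 7.61 CPM after the combination, against 17.1, 15.7 and 13.5 CPM after saline. All 9 drug inputs lay below the 3 saline inputs that the comparisons share, and edgeR called none of the log2 differences of -0.74, -0.61 and -0.81 (adjusted p = 0.993, 1 and 0.891). The share of all genes with such a separation was not counted, so it cannot be read as a drug effect.

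In DVC IP the genes with the smallest p were ones with most libraries at 0. After AC3174 it was Hoxa7, at 0 in all 3 libraries against 8.98, 0 and 0 CPM after saline (edgeR adjusted p = 0.677), so the difference rests on the first saline library. After AC170222 it was Hoxb7, which rests on the second AC170222 library at 15.1 CPM (edgeR adjusted p = 0.852). After the combination it was again Hoxb7 (edgeR adjusted p = 0.817). DESeq2, run as an alternative, called 2 Hox genes in each DVC IP comparison, Hoxb7 and Hoxc6, both at 0 in all saline IP libraries. It called 1144, 906 and 935 of all genes in those comparisons, where edgeR called none.

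The summed Hox level gave the same picture by treatment. In DVC IP it averaged 438 ± 212 CPM after AC3174, 394 ± 52.1 CPM after AC170222, 360 ± 24.3 CPM after the combination and 347 ± 92.2 CPM after saline (SD, n = 3 each). In DVC input it averaged 399 ± 47.9 CPM after AC3174, 532 ± 28.0 CPM after AC170222, 525 ± 92.7 CPM after the combination and 424 ± 116 CPM after saline. The ranges of each drug and saline overlapped in both RNA kinds.

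**Figure D5:**
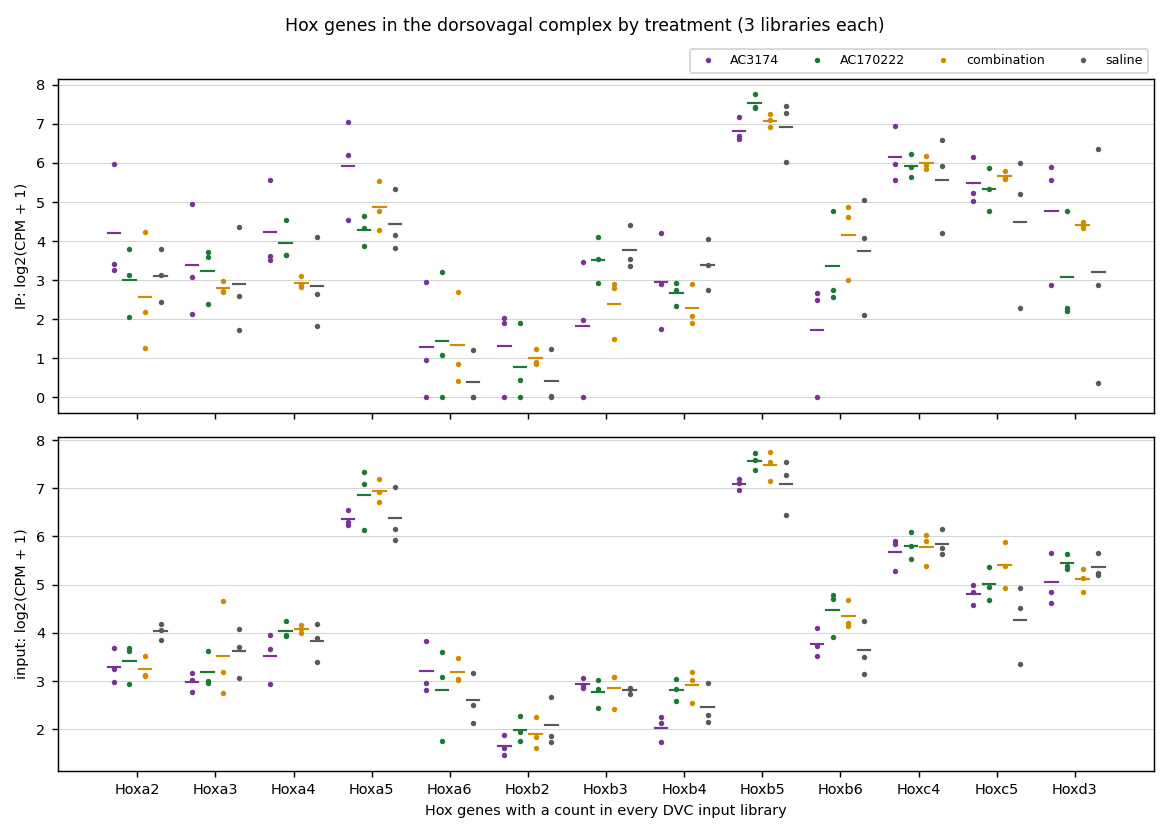
Level of the 13 Hox genes with a count in every DVC input, as log2(CPM + 1), by treatment, with IP above and input below. Each point is a library, 3 per treatment, and bars are means; points of the treatments intermingle for Hoxb5 and Hoxc4 in both RNA kinds, and points at 0 occur in IP.

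Genes that work with Hox proteins or lie beside them were read from lists. Of 16 noncoding RNAs of the clusters with a row, 6 passed the filter in input and all 6 were higher in the DVC, and 5 were higher in IP. Apart from Hotairm1 these passed only through their DVC counts and were bound to lie on that side, so the number is a description. Without strand, reads of an antisense RNA and of a Hox exon it overlaps cannot be told apart. The 3 with the smallest p in input were Hoxaas2, with a log2 difference of 10.17 ± 0.78, Hoxb5os, at 9.94 ± 0.79, and Hoxb3os, at 10.39 ± 1.12, each an antisense RNA of its cluster. The summed level of all 16 noncoding RNAs ran from 7.74 to 72.6 CPM in DVC IP and 19.7 to 38.5 CPM in DVC input, against 0 to 2.32 CPM in MBH IP and 0 to 1.04 CPM in MBH input. Hotairm1, an RNA of the 3′ end of cluster a, was the one with counts in most MBH libraries, 10 of 12 in IP and 7 of 12 in input. It averaged 0.760 CPM in MBH IP and 0.213 CPM in MBH input, against 10.5 CPM in DVC IP and 7.37 CPM in DVC input.

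Of the 9 Pbx, Meis and Pknox cofactors, 3 were higher and 2 lower in DVC input, where 11.7% of all genes were called higher and 10.2% lower. Meis2 averaged 148 CPM in DVC IP and 199 CPM in DVC input, against 4.49 CPM in MBH IP and 4.42 CPM in MBH input, and its log2 difference in input was 5.95 ± 0.71 (edgeR adjusted p = 4.72e-06). Meis1 averaged 82.0 CPM in DVC IP and 61.4 CPM in DVC input, against 6.08 CPM in MBH IP and 4.87 CPM in MBH input, with a log2 difference of 6.44 ± 0.96 (adjusted p = 9.74e-05). Pbx3 was higher by 1.75 ± 0.37, and Pbx4 fell by 1.42 on the log2 scale. Meis1 and Meis2 were the 2 called in IP, where 5.89% of all genes were called. No cofactor was called between IP and input in the DVC.

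Of 32 tested regulators of Hox genes, from retinoic acid signalling and the Polycomb and Trithorax groups, 3 were higher and 3 lower in DVC input, a share near the 21.9% called over all genes. The retinoid genes Rara, Rarb, Rarg, Rxra, Rxrb, Aldh1a2 and Crabp2 were among those not called. The 3 genes with the smallest p are named next. Rxrg, a retinoid X receptor, was lower, with a log2 difference of -2.97 ± 0.16 and means of 15.4 CPM in DVC input and 119 CPM in MBH input. Crabp1, a retinoic acid binding protein, was lower too, at -2.35 ± 0.20, with 18.7 CPM in DVC input and 97.0 CPM in MBH input. Aldh1a1, a retinaldehyde dehydrogenase, was higher, at 2.45 ± 0.17, with 159 CPM in DVC input and 29.4 CPM in MBH input. In IP, 1 regulator was called between the regions, Crabp1, again lower in the DVC.

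Genes that flank the clusters were mixed. Of 10 tested, 4 were higher and 2 lower in DVC input, where 11.7% of all genes were called higher and 10.2% lower. Evx1 and Evx2, homeobox genes next to clusters a and d, had no MBH count in 24 libraries and averaged 1.00 and 0.764 CPM in DVC input, so they too could only lie higher in the DVC. Skap2, beyond the 3′ end of cluster a, was higher by 1.84 ± 0.30, with 41.6 CPM in DVC input and 11.6 CPM in MBH input. Cbx5 was lower, with a log2 difference of -0.48 ± 0.11.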

How the data were processed

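The deposited table held raw counts per gene ID for 48 libraries, which the authors made with TopHat2 2.0.11, HTSeq 0.6.1p1 and the mouse genome GRCm38, per the submitters' processing notes. Neither the annotation nor the counting mode or strand setting is stated in these sources. Per the labels' protocols, RNA was amplified with the SMART-Seq v4 kit and libraries were made with Nextera XT, which do not mark strand. IDs were matched to GENCODE M21 (36345 of 38293), which also gave exon lengths and coordinates. No pair of libraries of a group agreed within counting noise (lowest chi-square per degree of freedom 135 over 48 pairs), so each counted as 1 sample.

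The deposited counts were tested with edgeR 4.0.16 in R 4.3.3 (quasi-likelihood F test, TMM scaling, filterByExpr, 1 mean per group), with Benjamini-Hochberg adjustment over all genes tested and calls at an adjusted p under 0.05. The procedure was tested on simulated data. Levels are TMM-scaled CPM, divided by exon length where genes are compared. Floors are 3 counts and cover counting error only. Per the labels' protocols, the input and IP libraries of a sample came from one supernatant, so the sample pairs them. Their deviations from group means were nonetheless nearly uncorrelated, with a median r of 0.014 over 12 DVC pairs (9697 genes) and a median r of 0.0033 over 12 MBH pairs, and no pair over 0.1. Alternatives were DESeq2 1.42.0, DESeq2's size factors, no filter on low counts, saline libraries alone, a replicate block, an additive design, a covariate for the column pair in the library code, leaving out libraries with under 12000 genes, and leaving out each library. The additive design was chosen after seeing the data.

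Full statistics are given for Hox genes called, or for the 8 with the smallest p where more were called, and values in every library for the highest gene of each cluster in DVC input. Where none was called, the gene with the smallest p is named. From lists, the called genes with the 3 smallest p are named, and further members were named after their values were seen. One Hox gene and some list members are counted in the totals but not reported here. The Hox genes and all lists were chosen with earlier results of these data known. Promoter and microRNA sequences are from RefSeq for GRCm38.p6.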

Additional observations from a re-analysis of the deposited data

How the results depend on the processing

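The number of regional calls changed with the libraries used and with the replicate block. In input, 19 Hox genes were higher in the DVC, and this became 3 in the saline libraries alone and 12 with a replicate block on the sample number shared by DVC and MBH. In IP, 13 became 0 in the saline libraries alone and 2 with the replicate block, Hoxb5 and Hoxc4. These numbers are not stated to mark the same mice, and the deviations of same-numbered DVC and MBH libraries had a median r of 0.031 in input and 0.095 in IP, with 18 and 17 of 24 libraries correlating best with their own number. Pairs with different numbers had a median r of -0.011 in input and -0.047 in IP. Same-numbered libraries thus deviated together somewhat more than others, and what they share was not tested. Leaving out each library gave 16 to 19 calls in input and 12 to 13 in IP. Calls lost in input included Hoxc6 and Hoxd1 without the second saline DVC library, and Hoxb8 and Hoxd1 without the second AC3174 DVC library. DESeq2 gave 18 in input and 15 in IP, and leaving out the low-complexity libraries gave 11 in IP. Shares of all genes called in these alternatives are not given here, so the counts are descriptions.

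Between IP and input in the DVC, 3 Hox genes were lower. DESeq2 gave 7, the saline libraries alone gave 0, the replicate block 1, and leaving out each sample 1 to 4. Hoxa5 was called in each of these but in the saline libraries alone. Over all genes this comparison called 3776 by edgeR, 6091 by DESeq2 and 1401 with the replicate block. In the MBH the difference of Hoxa2 between IP and input changed sign: it was -0.21, and became 0.24 with DESeq2, 0.24 with the additive design and 0.34 without the low-complexity libraries. Leaving out each sample gave -0.64 to 0.70. The cause was not tested.

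For the drugs, DESeq2 called 2 Hox genes in DVC IP after AC3174, 2 after AC170222 and 2 after the combination, where edgeR called 0, and every other alternative run gave 0 Hox calls in all 12 comparisons. Across treatments the replicate block, on a number that marks no stated batch, gave 0 Hox calls. Same-numbered libraries of different treatments had a median r of 0.127 in MBH IP (for 11 of 12 the best match was the own number) and 0.018 to 0.029 in the other sets. Pairs of MBH IP libraries with different numbers had a median r of -0.072. With 3 libraries per treatment and most IP libraries at 0 for the lower genes, fitted values of Hoxa7 and Hoxb7 rest on 1 or 2 libraries. The level of Hoxb5 in DVC input was 60.7 CPM/kb with library totals in place of TMM, and 56.4 to 60.6 CPM/kb when each library was left out.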

Other observations

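The spread between libraries was wider in IP than in input for every one of the 13 Hox genes with a count in all DVC inputs. It was wider over all genes tested too: edgeR's biological coefficient of variation was 1.60 in DVC IP and 0.918 in DVC input. The share of all genes with a wider spread in IP was not counted. The coefficient of variation over 12 libraries was 103% in IP and 22.9% in input for Hoxd3, 92.8% in IP and 33.0% in input for Hoxa5, 129% in IP and 32.0% in input for Hoxa2, and 89.9% in IP and 23.4% in input for Hoxa4. It was closest for Hoxc5, at 42.2% in IP and 39.2% in input, and for Hoxb5, at 29.2% in IP and 23.3% in input. Each DVC IP library had more counts in all than any DVC input, but the genes with a count went down to 9925 in IP, against 16569 in input. The values are descriptions and were not tested.

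Within the DVC inputs, Hoxd1 came and went between libraries while Hoxd3 did not. Hoxd1 was above 2 CPM in 5 inputs and at 0 in 5, while Hoxd3 stayed between 23.7 and 49.8 CPM. The second sample of each treatment was above 2 CPM: 2.43 after saline, 3.79 after AC3174, 4.39 after AC170222 and 3.52 after the combination. The remaining input above 2 CPM was the third after AC170222, at 2.35 CPM. The sample number marks no stated batch, and this pattern, seen in the values, was not tested.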
